A study of Mus musculus with 16 samples.

Results

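A set of 9 genes of the TGF-beta axis and of the myofibroblast was followed in mouse skin wounds, namely the ligand genes Tgfb1, Tgfb2, Tgfb3 and Inhba, the contractile genes Acta2, Tagln and Cnn1, and the matricellular genes Postn and Tnc. They were chosen by name, as the probes whose transcript accession maps to one of these symbols in RefSeq, which gave 11 of 39429 probes and 9 of 20832 symbols. Tgfb2 and Tnc had 2 probes each, and the brighter one stands for the gene unless the other is named. RNA came from homogenates of the wound with the intact skin around it, taken from female mice with full-thickness wounds of the back, and each group had 2 arrays labelled day 7 and 2 labelled day 14, or 16 arrays in all. The WT group was C57BL/6J, aged 10 to 12 weeks and not treated. The db/db group was C57BLKS/J Iar-+Lepr db/+Lepr db, homozygous for the db mutation of the leptin receptor gene, aged 10 weeks and not treated. The db/db + estrogen group, called the estrogen group below, had estradiol benzoate in sesame oil on the wound at 0.75 μg/g/day, and the db/db + vehicle group, called the vehicle group, had the oil alone, in mice of the same strain, genotype and age. Strain and genotype cannot be told apart in any comparison with WT, and the oil is shared by both treated groups.

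TGF-beta is secreted in a latent form, and after its release it binds receptors that phosphorylate Smad proteins, which then act on target genes in the nucleus. Activin A, a dimer of the chain encoded by Inhba, signals through the same class of receptors and the same Smads. In skin wounds, these signals are known for turning fibroblasts into myofibroblasts, which take up the contractile proteins of smooth muscle and lay down matrix while the wound contracts.

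A level is the log2 of the signal over the 75th percentile of its array, so that 0 is that percentile and 1 unit is a doubling. All 11 probes were well above background on all 16 arrays, and no spot was saturated. On each array, from 70.1% to 79.0% of all probes passed that test. All 10 keratinocyte markers and all 10 fibroblast markers were well above background in every group. They show skin and cannot tell the wound from the intact skin around it. The labelled days require a caution. The 40 fold changes between the db/db and WT groups that the study printed were matched within 1% by the arrays of the other labelled day in 40 cases and by those of the same labelled day in 0, so the labels and the publication assign the days in opposite ways. Groups are named here by their labels, and a difference between the labelled days has no settled direction in time. The arrays of the days were also scanned on separate days and separate slides, which cannot be told apart from the labelled day. The sources used here do not say whether the 2 arrays of a group came from separate mice, and each mouse carried more than 1 wound, so that the p-values measure only the spread between arrays, which may be technical. In bulk tissue, fewer cells of a type and less RNA per cell cannot be told apart.

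The start region of Acta2 is shown because the CArG box, the element bound by serum response factor, is the known control element of the smooth muscle contractile genes, and Acta2 and Tagln varied together on the arrays. The 250 bases before the start of Acta2 lie on the minus strand of GRCm38.p6 at chr19:34255374-34255623. Capitals mark CArG boxes with at most 1 central base off, and the letters CAGAC of the Smad-binding element on either strand.
Acta2: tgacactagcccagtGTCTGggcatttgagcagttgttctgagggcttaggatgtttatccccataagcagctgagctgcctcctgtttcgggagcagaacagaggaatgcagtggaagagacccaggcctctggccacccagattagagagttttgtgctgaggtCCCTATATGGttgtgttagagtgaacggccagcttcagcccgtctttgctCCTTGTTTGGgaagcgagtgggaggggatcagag
The region held 2 such boxes, CCCTATATGG and CCTTGTTTGG, and 1 CAGAC. RefSeq gave a start region for 7 of the 9 genes, in 9 regions. None was given for Tagln and Tgfb3, so these genes were not searched. Of the 9 regions, that of Acta2 was the 1 that held a CArG box of this kind, against 8.59% of the 32851 mouse start regions of the same length. CAGAC was in 4 of the 9 regions and in 42.2% of all. A match of letters is a description of the sequence and says nothing of binding in these wounds.

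Compared with WT wounds, the ligand genes Tgfb1 and Inhba on labelled day 7, and Inhba on labelled day 14, were higher in db/db wounds, whereas no contractile or matricellular gene passed the threshold. A gene was called where limma gave a two-sided unadjusted p under 0.05 and a fold change over 2, the rule of the study, and the p adjusted over all probes by the Benjamini-Hochberg method is given beside each call. By this rule, 2 of 9 genes were called in db/db vs WT on labelled day 7, both higher, against 14.1% of all probes tested in either direction and 5.68% higher. On labelled day 14 it was 1 of 9, also higher, against 17.9% and 2.35%. With estrogen against db/db, 2 of 9 genes were called lower on labelled day 7, Inhba and Tnc, against 9.91% of all probes in either direction and 4.71% lower, and 3 of 9 on labelled day 14, Inhba, Cnn1 and Tnc, against 3.91% and 1.35%. With vehicle against db/db, Cnn1 was called lower on labelled day 7, against 4.82% and 2.31%, and Tgfb3, Inhba, Tagln and Cnn1 on labelled day 14, against 7.51% and 2.2%. Between the treated groups, Inhba and Tnc were called lower with estrogen on labelled day 7, against 8.98% and 4.32%. On labelled day 14, 0 of 9 genes differed between estrogen and vehicle by this rule in limma, against 0.984% of all probes. Without the fold threshold, none of the 9 genes had an unadjusted p under 0.05 in limma either.

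After adjustment, both calls of labelled day 7 held in db/db vs WT, in estrogen vs db/db and in estrogen vs vehicle, where 9.06%, 4.83% and 2.58% of all probes passed. No one of these calls kept an adjusted p under 0.05 in limma in every alternative setting, leaving out an array among them. A call said below to hold with each array left out did so by the unadjusted rule. In the other comparisons just named, 0 of 9 genes passed in limma after adjustment, against 0.148% of all probes for vehicle vs db/db on labelled day 7, and on labelled day 14 against 13.5% for db/db vs WT, 0.0991% for estrogen vs db/db, 0.193% for vehicle vs db/db and 0% for estrogen vs vehicle. The levels of all 9 genes had lower means in each treated group than in untreated db/db wounds on each labelled day, called or not. Their median difference was −0.61 with estrogen and −0.56 with vehicle on labelled day 7, and −0.87 and −0.93 on labelled day 14, where the medians over all probes lay from 0.04 to 0.06. The comparisons of both treated groups share the db/db arrays. Between the db/db and WT groups, the median over the 9 genes was −0.08 on labelled day 7 and 0.14 on labelled day 14.

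**Figure D1:**
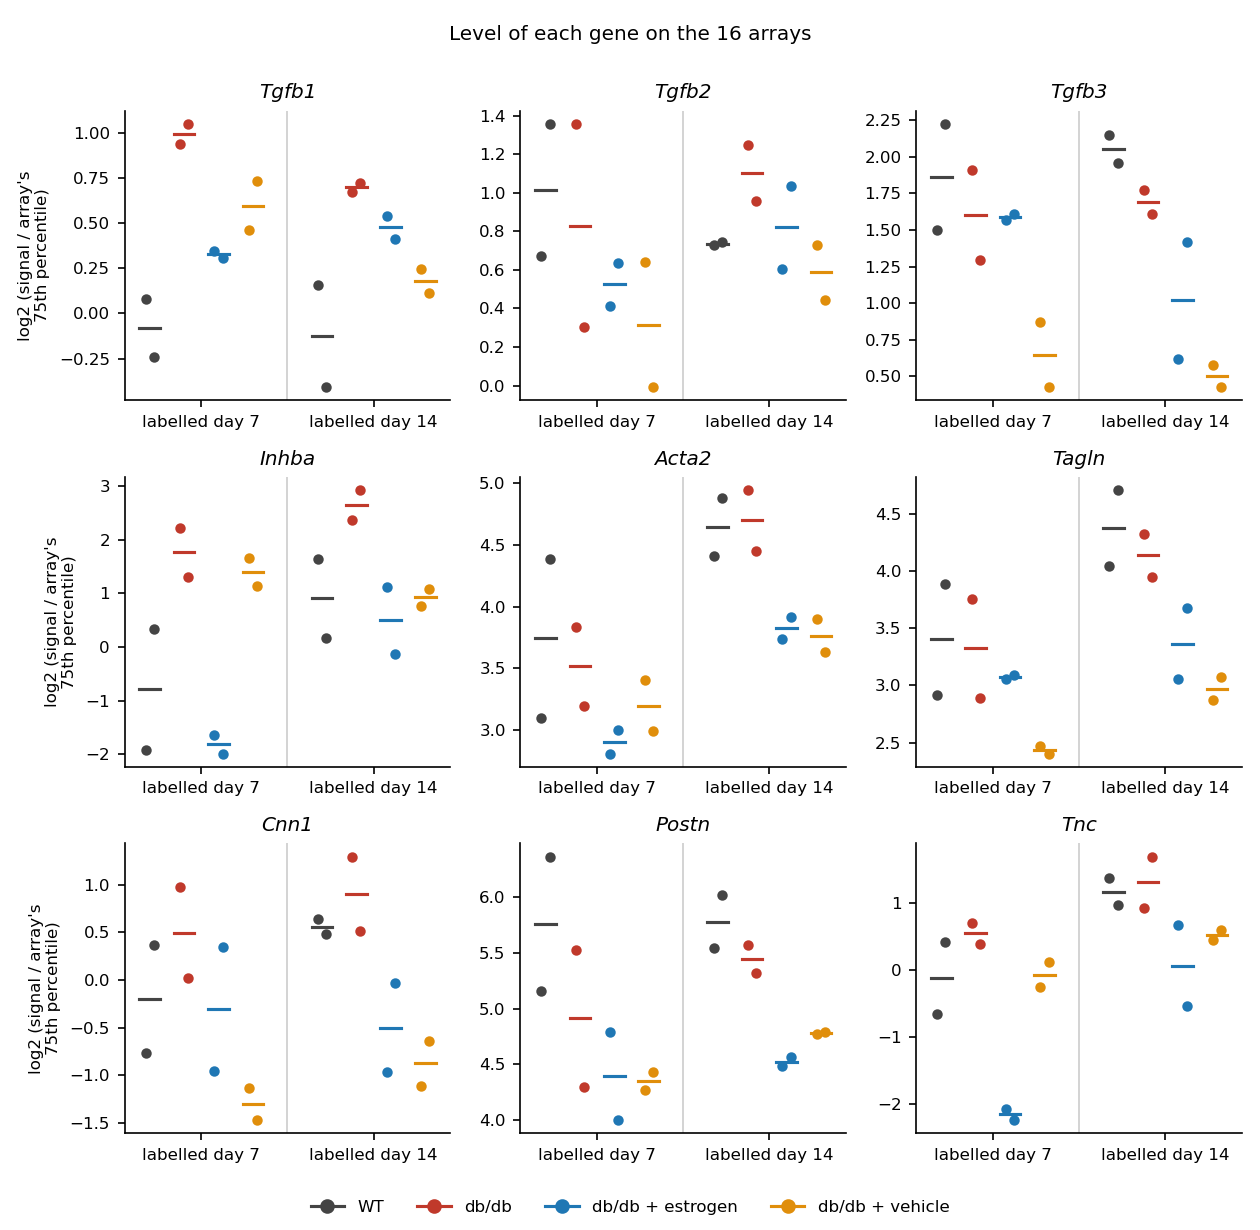
Each panel plots the level of 1 gene on the 16 arrays, as log2 of the signal over the 75th percentile of the array, with 1 point per array and a bar at the mean of the 2 arrays of a group. The estrogen arrays labelled day 7 sit lowest for Tnc, at −2.06 and −2.23, and Tgfb1 is highest on the db/db arrays labelled day 7, at 0.94 and 1.05.

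Tgfb1, the TGF-beta isoform that dominates in wounds, was higher in db/db wounds than in WT wounds. On labelled day 7, its level was 0.94 and 1.05 on the db/db arrays and 0.08 and −0.24 on the WT arrays. It was 0.35 and 0.31 in the estrogen group and 0.46 and 0.73 in the vehicle group. The untreated db/db arrays lay highest and the WT arrays lowest, and both treated groups lay between them without overlap. The difference between the db/db and WT groups was 1.08 ± 0.20 (SE), or 2.11-fold (limma, adjusted p = 0.0091), and it was 0.86 on slide 1 and 1.30 on slide 2, which each held 1 array of every group. Without WT replicate 2, the difference was 0.91 and fell under the fold threshold. On labelled day 14, the level was 0.68 and 0.73 in the db/db group, 0.16 and −0.41 in the WT group, 0.54 and 0.41 in the estrogen group, and 0.25 and 0.11 in the vehicle group. The db/db arrays were again above the WT arrays. This difference was 0.83 ± 0.20, or 1.77-fold (limma, adjusted p = 0.019), so that it passed the p and not the fold. All db/db arrays of that labelled day were on slide 3 and all WT arrays on slide 4. With treatment, Tgfb1 differed from the db/db group by −0.67 ± 0.20 under estrogen on labelled day 7 (limma, adjusted p = 0.084) and by −0.52 ± 0.20 under vehicle on labelled day 14 (limma, adjusted p = 0.23), and neither reached 2-fold. Ordered by mean, the db/db group labelled day 7 stood first and was above the db/db group labelled day 14 without overlap, and the WT groups of both labelled days stood last and overlapped each other.

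The macrophage markers moved with Tgfb1 between the db/db and WT groups. On labelled day 7, 8 of 9 macrophage markers were higher in the db/db group. Of all probes, 5.68% were called higher and 14.1% in either direction, and of the 9 markers 6 were called higher and 1 lower. Their summed signal, in multiples of the 75th percentile, ran from 195 to 212 in the db/db group, 75.5 to 127 in the WT group, 169 to 189 in the estrogen group and 140 to 153 in the vehicle group. For labelled day 14 it ran from 140 to 153 in the db/db group, 75.4 to 102.2 in the WT group, 167 to 187 in the estrogen group and 143 to 163 in the vehicle group. The treated arrays were thus below the db/db range for these markers on labelled day 7 and not on labelled day 14. Tgfb1 was lower on the treated arrays than on the db/db arrays on each labelled day, and none of these differences was called. All 9 markers were well above background in every group, and the part of macrophages in the level of Tgfb1 was not tested.

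Inhba, which encodes the chain of activin A, had the widest range of the 4 ligand genes. On labelled day 7, its level was 2.21 and 1.31 in the db/db group, −1.92 and 0.34 in the WT group, −1.64 and −1.99 in the estrogen group, and 1.65 and 1.14 in the vehicle group. The db/db and vehicle arrays overlapped and were high, whereas both estrogen arrays were low. The WT array at −1.92 lay among the estrogen arrays, and that at 0.34 between them and the high arrays. With estrogen the level was below that of db/db by −3.57 ± 0.73, or 11.9-fold (limma, adjusted p = 0.021), and below that of the vehicle group by −3.21 ± 0.73, or 9.24-fold (limma, adjusted p = 0.048). Within slides, the former difference was −3.85 on slide 1 and −3.30 on slide 2, and the latter −3.29 and −3.13. Both calls held with each array left out. The db/db group was higher than the WT group by 2.55 ± 0.73, or 5.87-fold (limma, adjusted p = 0.047), with 4.13 on slide 1 and 0.98 on slide 2. Without WT replicate 1, that difference was 1.43 and was not called. The vehicle group was higher than the WT group by 2.19 ± 0.73 (limma, adjusted p = 0.094, against 10.3% of all probes called), which was 1.06 without the same array and 1.93 without vehicle replicate 1, neither called.

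On labelled day 14, the level of Inhba was 2.37 and 2.92 in the db/db group, 1.64 and 0.18 in the WT group, 1.12 and −0.13 in the estrogen group, and 0.77 and 1.08 in the vehicle group. The db/db arrays lay above all others, and the arrays of the other 3 groups overlapped. The db/db group was higher than the WT group by 1.74 ± 0.73 (limma, adjusted p = 0.12), the estrogen group lower than the db/db group by −2.15 ± 0.73 (limma, adjusted p = 0.40), and the vehicle group lower by −1.72 ± 0.73 (limma, adjusted p = 0.26). No one of these calls held after adjustment. All arrays of the db/db group labelled day 14 were on slide 3 and all of the WT group on slide 4, and with the slide as a fixed block the db/db to WT difference was 1.27 and was not called. Under the same block, the differences from db/db were −1.92 with estrogen and −1.49 with vehicle, and neither was called. The db/db to WT call was also lost without db/db replicate 1 (2.01), without db/db replicate 2 (1.46) and without WT replicate 2 (1.01). The estrogen call was lost without db/db replicate 2 (−1.87) or estrogen replicate 2 (−1.53), and the vehicle call was lost without any 1 of its 4 arrays, with values from −1.998 to −1.45. On slide 3 alone, the differences from the db/db group were −1.53 with estrogen and −1.88 with vehicle.

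Tgfb2 and Tgfb3, the other TGF-beta isoforms, did not differ from WT by the call rule in the db/db group. Tgfb3 was 1.91 and 1.30 in the db/db group, 1.499 and 2.23 in the WT group, 1.57 and 1.61 in the estrogen group, and 0.87 and 0.42 in the vehicle group on labelled day 7. It was 1.77 and 1.61, 2.15 and 1.96, 0.62 and 1.42, and 0.58 and 0.43 in the same groups on labelled day 14. The vehicle arrays were the lowest on each labelled day, with 1 estrogen array of labelled day 14 just above them. The vehicle group was lower than the WT group by −1.22 ± 0.32 on labelled day 7 (limma, adjusted p = 0.047) and by −1.55 ± 0.32, or 2.93-fold, on labelled day 14 (limma, adjusted p = 0.014, against 13.4% of all probes). The labelled day 14 call held with each array left out, whereas that of labelled day 7 fell under 2-fold without WT replicate 2 (−0.85) or vehicle replicate 2 (−0.99). Against the db/db group, the vehicle difference on labelled day 14 was −1.19 ± 0.32 (limma, adjusted p = 0.13) and was called with each array left out. Tgfb3 in the estrogen group differed from the db/db group by −0.02 on labelled day 7 and −0.67 on labelled day 14, neither called. Against WT on labelled day 14, it was lower with estrogen by −1.04 ± 0.32 (limma, adjusted p = 0.066, against 13.3% of all probes), which was −0.64 without estrogen replicate 1, −0.94 without WT replicate 1 and −0.87 with the slide as a fixed block, none called. Tgfb2 ranged from −0.01 to 1.36 over the 16 arrays, its groups overlapped in 8 of the 12 comparisons within a labelled day, and its brighter probe was called in 0 of these by limma, at an unadjusted p under 0.05 with a 2-fold change. Its difference between the db/db and WT groups on labelled day 7 was −0.18, with a 95% confidence interval from −0.997 to 0.63, which does not show that they were alike. The dimmer Tgfb2 probe was called once, lower with vehicle than in WT on labelled day 7, by −1.10 ± 0.34 (limma, adjusted p = 0.072).

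**Figure D2:**
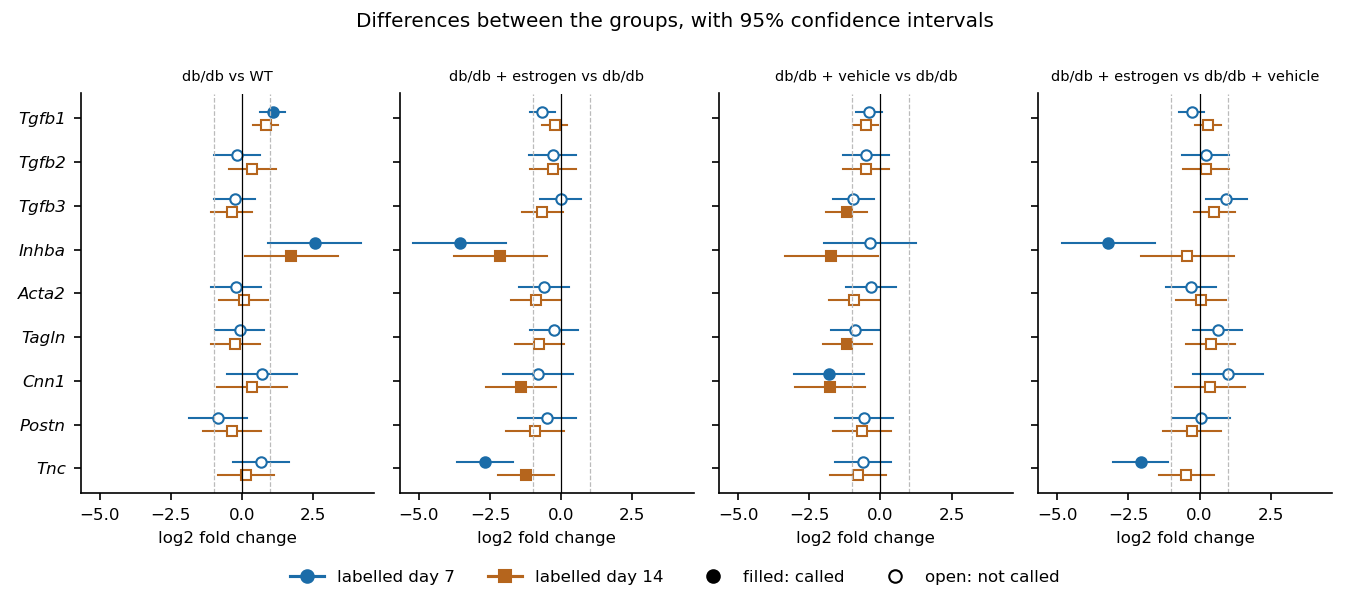
Each panel gives the log2 fold change of the 9 genes in 1 comparison (circles for labelled day 7, squares for labelled day 14), with the 95% confidence interval as a line, filled points for called genes and dashed lines at a fold of 2 in each direction. With estrogen against the db/db group on labelled day 7, Inhba at −3.57 and Tnc at −2.69 stand apart from the other genes, which lie from −0.81 to −0.02.

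The contractile genes did not differ between the db/db and WT groups by the call rule, and they were lower in the oil-treated db/db wounds in part. Cnn1 encodes calponin, a regulator of smooth muscle contraction. Its level on labelled day 7 was 0.98 and 0.02 in the db/db group, −1.13 and −1.47 in the vehicle group, −0.95 and 0.34 in the estrogen group, and −0.77 and 0.37 in the WT group. The values on labelled day 14 were 1.30 and 0.51 in the db/db group, −1.11 and −0.64 in the vehicle group, −0.97 and −0.03 in the estrogen group, and 0.64 and 0.48 in the WT group. The vehicle arrays lay below the db/db arrays on each labelled day. Their difference was −1.80 ± 0.55 on labelled day 7 (limma, adjusted p = 0.20) and −1.78 ± 0.55 on labelled day 14 (limma, adjusted p = 0.16), so that the unadjusted rule called both and the adjusted p neither. It was −2.11 on slide 1, −1.50 on slide 2 and −2.02 on slide 3. Without db/db replicate 1, it was −1.33 on labelled day 7 and −1.39 on labelled day 14, and without vehicle replicate 1 it was −1.54 on labelled day 14, and none of these was called. The estrogen difference was −1.40 ± 0.55 on labelled day 14 (limma, adjusted p = 0.48), which was not called without db/db replicate 1 (−1.01) or estrogen replicate 1 (−0.93). Against WT on that labelled day, Cnn1 was lower with vehicle by −1.43 ± 0.55 (limma, adjusted p = 0.11). This call was lost without vehicle replicate 1 (−1.20), WT replicate 1 (−1.35) or WT replicate 2 (−1.51), and with the slide as a fixed block (−1.08).

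Tagln encodes transgelin, an actin-binding protein of smooth muscle and an early marker of contractile differentiation. Its level on labelled day 14 was 4.32 and 3.95 in the db/db group, 4.04 and 4.70 in the WT group, 3.06 and 3.67 in the estrogen group, and 2.87 and 3.08 in the vehicle group. Both treated groups lay below both untreated groups. The vehicle group was lower than the WT group by −1.40 ± 0.38, or 2.64-fold (limma, adjusted p = 0.040), and this call held with each array left out. It was lower than the db/db group by −1.16 ± 0.38 (limma, adjusted p = 0.18), which was not called without db/db replicate 1 (−0.98) or vehicle replicate 1 (−1.06). With estrogen it was below WT by −1.01 ± 0.38 (limma, adjusted p = 0.12), and −0.70 without estrogen replicate 1, −0.67 without WT replicate 2 and −0.80 with the slide as a fixed block were not called. On labelled day 7, Tagln was 2.47 and 2.40 in the vehicle group and from 2.89 to 3.88 on the other 6 arrays, and it was called in none of the comparisons of that day.

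Acta2, which encodes the smooth muscle actin that marks myofibroblasts, was called in none of the comparisons within a labelled day. On labelled day 7, its level was 3.84 and 3.20 in the db/db group, 3.10 and 4.39 in the WT group, 2.81 and 3.0002 in the estrogen group, and 3.40 and 2.99 in the vehicle group. The same groups gave, for labelled day 14, 4.94 and 4.45, 4.41 and 4.88, 3.74 and 3.91, and 3.90 and 3.63, so that both treated groups lay below both untreated groups. Their differences from the db/db group on labelled day 14 were −0.87 with estrogen and −0.93 with vehicle. Between the db/db and WT groups, the difference was −0.23 on labelled day 7 (95% confidence interval from −1.10 to 0.65) and 0.05 on labelled day 14 (from −0.83 to 0.93). A difference of 2-fold on labelled day 7 therefore lay within the interval in the lower direction. Tgfb1, Tgfb3 and Acta2 were each printed on up to 10 spots of an array with an SD of at most 0.086 between them.

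The markers of other cells that hold contractile proteins are given beside these genes. Of 11 smooth muscle and pericyte markers tested with vehicle against the db/db group on labelled day 7, 3 were called lower and 0 higher. Of all probes, 2.31% were called lower, and the median of the markers was −0.88 against 0.04 over all probes. Of 12 markers on labelled day 14, 1 was called lower, against 2.2% of all probes, with a median of −0.80 against 0.06. Myh11, the myosin of smooth muscle, differed by −1.68 with vehicle against the db/db group on labelled day 7 (limma, adjusted p = 0.085). The summed signal of that list on labelled day 7 ran from 64.0 to 101 in the db/db group and 65.2 to 69.2 in the vehicle group. It ran from 42.7 to 45.8 in the WT group and 36.3 to 38.6 in the estrogen group. The vehicle arrays lay within the db/db range, and the estrogen arrays, which were low for Inhba and Tnc, lay below all others. The sum follows its brightest markers and not the list as a whole. With estrogen against the db/db group, 4 of 11 markers were higher and 1 was called lower, against 4.71% of all probes. Their median was −0.19, against 0.04 over all probes. For db/db against WT, 3 of 11 markers were higher, with a median of −0.25 against −0.05. The sum ran from 60.6 to 66.5 in the db/db group, 37.3 to 58.7 in the vehicle group and 46.0 to 77.8 in the estrogen group on labelled day 14, with 11 or 12 of 12 markers well above background in these groups. The skeletal muscle markers ran from 146.8 to 1207 between the arrays of the estrogen group labelled day 14, and from 250 to 340 in the vehicle group against 530 to 833 in the db/db group. The endothelial list ran from 13.5 to 14.3 with vehicle and 21.5 to 23.8 in the db/db group on that labelled day. The part of these cells in the levels of the contractile genes, Inhba and Tnc was not tested.

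Tnc, which encodes tenascin-C, a matrix protein of granulation tissue, was lower with estrogen than in every other group on labelled day 7. Its level was −2.06 and −2.23 with estrogen, 0.70 and 0.39 in the db/db group, −0.25 and 0.11 in the vehicle group, and −0.65 and 0.41 in the WT group. Both estrogen arrays were below the other 6 arrays by more than 1 unit. The difference was −2.69 ± 0.44, or 6.45-fold, against the db/db group (limma, adjusted p = 0.0076), −2.07 ± 0.44, or 4.21-fold, against the vehicle group (limma, adjusted p = 0.038), and −2.03 ± 0.44, or 4.07-fold, against the WT group (limma, adjusted p = 0.031, against 8.14% of all probes). The second probe of Tnc gave −3.02, −2.16 and −2.13. Within slides, the difference from the db/db group was −2.76 on slide 1 and −2.62 on slide 2. All 3 calls held with each array left out.

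Tnc on labelled day 14 was 0.66 and −0.54 in the estrogen group, 0.92 and 1.68 in the db/db group, 0.45 and 0.59 in the vehicle group, and 1.36 and 0.96 in the WT group. The estrogen arrays spanned the vehicle arrays and lay below those of the other groups. The difference from the db/db group was −1.24 ± 0.44 (limma, adjusted p = 0.42) and rested on single arrays, since it was −0.64 without estrogen replicate 2, −0.87 without db/db replicate 2 and −0.98 with the slide as a fixed block, and none was called. Against the WT group, it was −1.10 ± 0.44 (limma, adjusted p = 0.13), and it was −0.50 without estrogen replicate 2 and −0.90 without WT replicate 1, neither called.

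Postn encodes periostin, a matricellular protein that TGF-beta is known to induce. On labelled day 7, its level was 5.16 and 6.36 in the WT group, 5.52 and 4.30 in the db/db group, 4.79 and 4.0015 in the estrogen group, and 4.27 and 4.44 in the vehicle group. For labelled day 14 it was 5.54 and 6.02, 5.57 and 5.32, 4.48 and 4.57, and 4.78 and 4.79 in the same groups. The treated groups lay below the WT group on each labelled day. The difference from WT was −1.36 ± 0.46 with estrogen (limma, adjusted p = 0.14) and −1.41 ± 0.46 with vehicle (limma, adjusted p = 0.087) on labelled day 7. It was −1.26 ± 0.46 with estrogen on labelled day 14 (limma, adjusted p = 0.10), and none passed after adjustment. No one of these calls held throughout. The labelled day 7 differences were −0.76 and −0.80 without WT replicate 2, that with estrogen was −0.97 without estrogen replicate 2, and that with vehicle was −1.32 without vehicle replicate 1. That of labelled day 14 was lost without estrogen replicate 1 (−1.21), estrogen replicate 2 (−1.30) or WT replicate 2 (−1.02), and with the slide as a fixed block (−1.23). No difference of Postn between db/db groups was called.

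The neutrophil markers moved with Inhba and Tnc under estrogen on labelled day 7. With estrogen against db/db, 4.71% of all probes were called lower, and 4.83% passed after adjustment in either direction. All 7 neutrophil markers with a probe were called lower with estrogen than in db/db wounds, also after adjustment in limma. Among them S100a8 and S100a9, which encode the subunits of calprotectin, differed by −5.49 and −4.65, and Ltf and Camp, which encode proteins of the granules, by −8.82 and −7.08. The summed signal of the list was 6.20 and 25.1 on the estrogen arrays, 401 to 447 in the db/db group, 403 to 426 in the vehicle group and 296 to 305 in the WT group. The granule markers were also higher in db/db wounds than in WT wounds, by 8.14 for Ltf and 7.08 for Camp. In that comparison, 5 of 7 markers were called higher, against 5.68% of all probes. S100a8 and S100a9 differed by 0.75 and 0.06 and were not called. With vehicle against db/db, neither Inhba (−0.37) nor Tnc (−0.61) was called. Of the 7 neutrophil markers, 4 were called lower, against 2.31% of all probes, with a median of −3.66. After adjustment, 2 of these markers passed, against 0.148% of all probes in either direction. All 7 were well above background on both arrays in the db/db and vehicle groups. Ngp was so on 1 estrogen array and 0 WT arrays and Retnlg on 1 WT array, while Ltf, Camp, S100a8 and S100a9 were so on every array. The sum for labelled day 14 was 307 to 330 with estrogen and 254 to 295 in db/db. It follows the brightest markers, S100a8 and S100a9, at mean levels of 6.82 and 7.65 with estrogen and 6.49 and 7.41 in db/db. The other markers had lower means with estrogen than in db/db on that labelled day. These were −5.34 against −3.06 for Ltf, −3.39 against −1.18 for Camp and −5.64 against −3.25 for Ngp. For Retnlg they were 1.89 against 3.44, and for Mpo −1.87 against −1.58. The fibroblast markers ran from 770 to 889 with estrogen and from 771 to 800 in db/db on labelled day 7. The part of neutrophils in the levels of Inhba and Tnc was not tested.

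**Figure D3:**
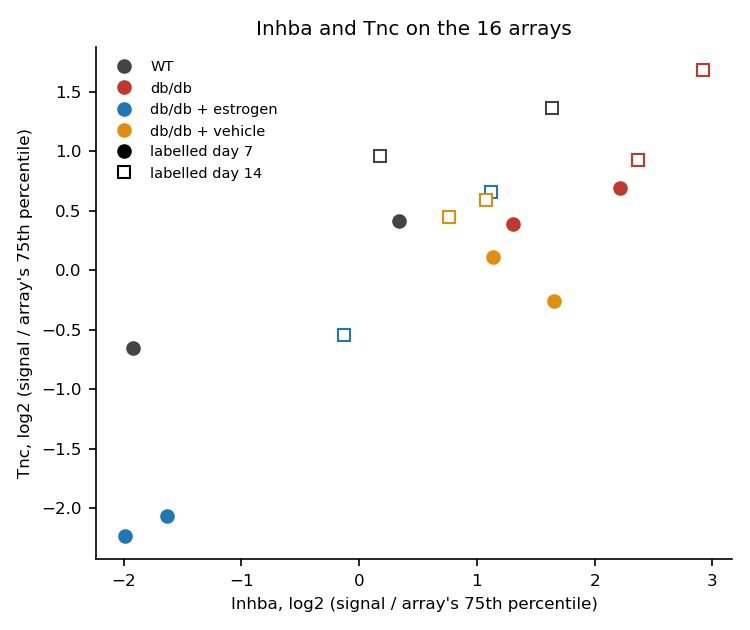
The level of Tnc is plotted against that of Inhba on the 16 arrays, both as log2 of the signal over the 75th percentile of the array, with colour for the group, filled circles for labelled day 7 and open squares for labelled day 14. The estrogen arrays labelled day 7 lie at the lower left, at −1.64 and −1.99 for Inhba, and the db/db arrays labelled day 14 at the right, at 2.37 and 2.92.

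Inhba and Tnc were higher on labelled day 14 than on labelled day 7 in the estrogen group. The level on labelled day 14 exceeded that on labelled day 7 by 2.21 ± 0.44, or 4.61-fold, for Tnc (limma, adjusted p = 0.016) and by 2.31 ± 0.73 for Inhba (limma, adjusted p = 0.066), and these 2 of 9 genes were called, both higher, against 13.8% of all probes in either direction and 3.05% higher. The second probe of Tnc differed by 1.48 ± 0.46 (limma, adjusted p = 0.064). The Inhba call was lost without estrogen replicate 1 of labelled day 14 (1.69). In the WT group, Inhba at 1.70 and Tnc at 1.28 were called higher, against 4.33% of all probes in either direction and 1.94% higher, at adjusted p of 0.38 and 0.29 in limma, and neither was called without WT replicate 1 of labelled day 7 (0.57 and 0.75), or without WT replicate 1 of labelled day 14 (0.97 and 1.08), and the second probe of Tnc, at 0.65, was not called. In the db/db group, Acta2 was called higher at 1.18 ± 0.39 (limma, adjusted p = 0.080), against 12.6% of all probes in either direction and 1.36% higher, and it was 0.86 without db/db replicate 2 of labelled day 7 and 0.94 without db/db replicate 1 of labelled day 14, neither called. In the vehicle group, 0 of 9 genes were called by limma, at an unadjusted p under 0.05 with a 2-fold change, against 11.7% of all probes. The effect of estrogen against db/db changed between the labelled days by the same rule for Tnc alone of the 9 genes, against 6.27% of all probes, and that of estrogen against vehicle for Inhba and Tnc, against 7.14%, with none of these passing after adjustment in limma.

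The other genes of the pathway were read from lists of receptors, latency proteins, antagonists, Smads, targets, contractile genes and matricellular genes. In db/db vs WT on labelled day 7, 0 of 9 receptor genes and 0 of 11 Smad genes were called by limma, where 14.1% of all probes were, 5.68% higher and the rest lower. Of 12 genes of latency and activation, 3 were called higher and 1 lower. Ltbp2, a latent TGF-beta binding protein of the matrix, was higher by 2.52 ± 0.45 (limma, adjusted p = 0.0082), and Ltbp4 of the same family was lower by −1.39 ± 0.27 (limma, adjusted p = 0.011). Of 17 target genes, 3 were higher and 1 lower. Plod2, a collagen lysyl hydroxylase, was lower by −1.21 ± 0.35 (limma, adjusted p = 0.047). Of 10 matricellular genes, 3 were higher and 0 lower, with Spp1, which encodes osteopontin, higher by 3.22 ± 0.50 (limma, adjusted p = 0.0043). The median of that list was 0.73, against −0.05 over all probes, and that of the target genes was −0.22.

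On labelled day 14, the same comparison called 2 of 12 latency genes higher and 1 lower, 2 of 17 target genes higher and 3 of 9 matricellular genes higher, against 17.9% of all probes in either direction and 2.35% higher. Here the db/db arrays were all on slide 3 and the WT arrays all on slide 4, so that group and slide were tied. Spp1 was again higher, by 2.50 ± 0.50 (limma, adjusted p = 0.0092), and Nrros, which holds latent TGF-beta at the surface of myeloid cells, by 1.05 ± 0.26 (limma, adjusted p = 0.021). Plod2 was higher by 1.28 ± 0.35 (limma, adjusted p = 0.029), the opposite direction to that on labelled day 7. Inha, the alpha chain of inhibin, which opposes activin, was lower by −1.17 ± 0.27 (limma, adjusted p = 0.017).

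With estrogen against the db/db group on labelled day 7, where 9.91% of all probes were called, the receptors again had 0 of 9 calls, and 1 of 11 Smad genes was called, the inhibitory Smad7, lower by −1.06 ± 0.24 (limma, adjusted p = 0.033). Ltbp2 was lower by −2.01 ± 0.45 (limma, adjusted p = 0.032). Grem1, which encodes gremlin, an antagonist of bone morphogenetic proteins, was lower by −3.51 ± 0.88 (limma, adjusted p = 0.047) and was the 1 call among 8 antagonists and activin subunits tested. Of 17 target genes, 3 were higher and 2 lower. Plod2 was higher by 2.89 ± 0.35 (limma, adjusted p = 0.0022), and Timp1, a metalloproteinase inhibitor, was lower by −1.59 ± 0.35 (limma, adjusted p = 0.029), so that the target list had members in both directions and a median of −0.13, against 0.04 over all probes. The mean levels in the db/db, vehicle and estrogen groups were 3.02, 0.78 and 1.01 for Ltbp2, and 2.08, −0.14 and −1.44 for Grem1. In the same order, they were −1.18, −1.39 and −2.24 for Smad7, −1.89, −0.89 and 1.00 for Plod2, and 4.45, 4.28 and 2.86 for Timp1. With the oil alone, the mean of Ltbp2 was thus below that with estrogen. None of the 17 genes of the actin cytoskeleton and contraction passed the rule in limma. Against the vehicle group, Timp3, another inhibitor of that family, was higher by 2.48 ± 0.35 (limma, adjusted p = 0.0087), and Fst, which encodes follistatin, the binding protein of activin, by 1.03 ± 0.22 (limma, adjusted p = 0.042). Myh11 was higher by 1.45 ± 0.33 (limma, adjusted p = 0.050).

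With vehicle against the db/db group, 0 of the 9 receptor and 0 of the 11 Smad genes were called on either labelled day. The target list had 1 gene higher and 3 lower of 17 on labelled day 7 and 2 lower on labelled day 14, and the list of contraction had 3 lower and 2 lower of 17, against 2.31% and 2.2% of all probes lower. No gene of these lists passed after adjustment. With estrogen against the db/db group on labelled day 14, 2 of 12 latency genes, 2 of 17 target genes and 2 of 17 contraction genes were called lower, against 1.35% of all probes, again none after adjustment.

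**Figure D4:**
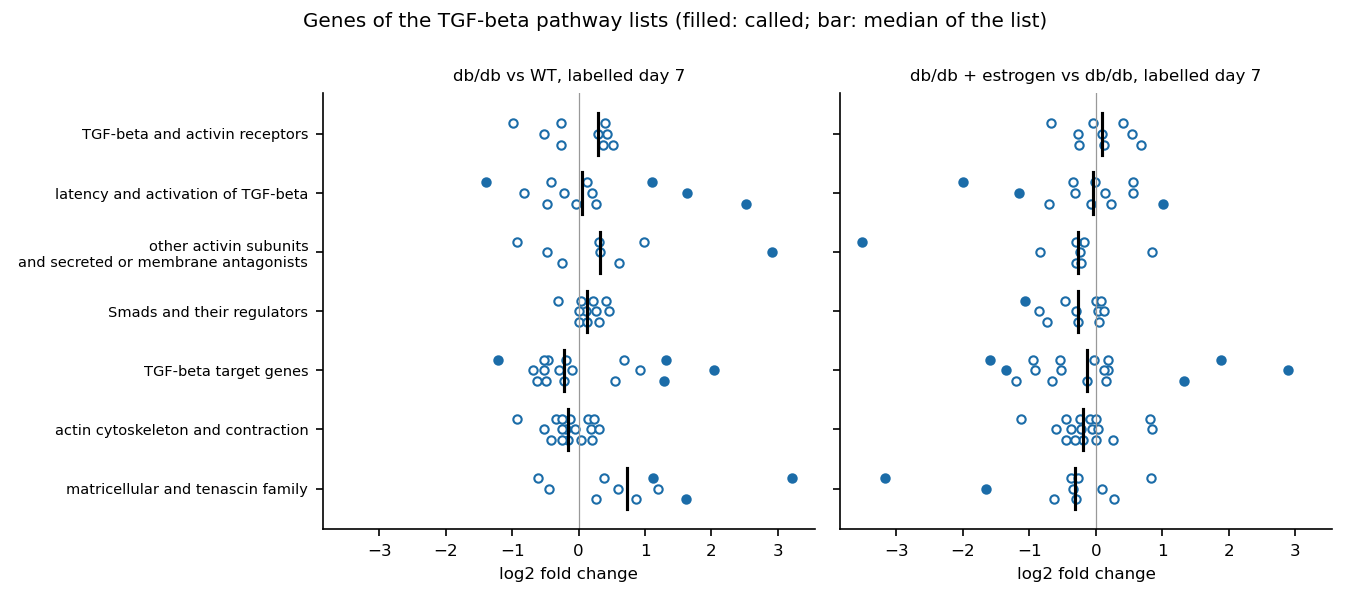
Each point is the log2 fold change of 1 gene of a pathway list on labelled day 7, at the left for the db/db group against the WT group and at the right for the estrogen group against the db/db group, with filled points for called genes and a bar at the median of the list. Spp1 at 3.22 lies farthest right in the left panel, and Grem1 at −3.51 and Plod2 at 2.89 mark the ends of the second.

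As a description over the 16 arrays, which share their treatments and labelled days, the contractile genes varied together, with a Pearson r of 0.87 between Acta2 and Tagln and 0.84 between Tagln and Cnn1. Inhba varied with Tnc at 0.84. Tgfb1 was apart from the others, with r from −0.47 with Postn to 0.47 with Inhba. Among 15359 genes well above background on all arrays, the 3 most like Tgfb1 were Slc7a7 (r of 0.97), Atp6v0c (0.96) and Tmem82 (0.95). Those most like Inhba were Nt5e (0.95), Snai1 (0.95) and Ier3 (0.93), and those most like Tnc were Prokr2 (0.97), Gm4907 (0.93) and Rai14 (0.93). Tagln was most like Myl9 (0.95), Icam2 (0.94) and Arhgef40 (0.93), and Acta2 most like Cdc42bpa (0.95), Prickle1 (0.95) and Lin7a (0.94). For Cnn1 they were Pcdhb3 (0.89), Myl9 (0.88) and Jam2 (0.88), for Postn Mex3a (0.93), Nr5a2 (0.92) and Acvr1 (0.92), for Tgfb2 Sdc2 (0.92), Pcdhb3 (0.89) and St3gal2 (0.89), and for Tgfb3 Mfap4 (0.93), Tmtc1 (0.92) and Zfp454 (0.91).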

How the data were processed

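The authors hybridised Cy3-labelled cRNA to 1-colour mouse arrays and deposited scanner files whose intensity was background-subtracted and spatially detrended by Feature Extraction 11.0.1.1. The deposited series matrix holds a ratio that equalled the intensity over the 75th percentile of the array within 0.1% for at least 99.4% of the 34643 probes. Here outlier spots were left out, spots of a probe were averaged, and log2 intensity minus the log2 75th percentile of the array was fitted with limma 3.58.1 (R 4.3.3) in 1 model of 8 groups leaving 8 residual degrees of freedom. Probes entered a comparison if 1 or both groups had them well above background on each of their arrays. Calls needed an unadjusted p of 0.05 and a fold of 2, as in the study. The 9 genes and all lists were chosen with earlier results of these data known. All 9 were named with every probe, the pathway lists by the called gene with the largest fold in each direction and an adjusted p under 0.05, and likeness by the 3 highest r. One gene that this rule names is not reported here. With 2 arrays a group, an exact permutation test cannot go below p = 0.333, so none was run, and the number of arrays limits the precision. The pipeline was tested on simulated data. Cd68 and Ly6g had no named probe. Alternatives were normexp (offset 50), quantile normalization, other filters, a floor, the series matrix, the mean of probes, slide and replicate blocks (statmod 1.5.0), fits of the compared groups and leaving out each array.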

Additional observations from a re-analysis of the deposited data

Results flagged for a closer look

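The effect of estrogen on Inhba and Tnc differed between the labelled days by the unadjusted rule, in contrasts of the same limma model. For Tnc, the difference of the estrogen group from the db/db group was higher on labelled day 14 than on labelled day 7 by 1.44 ± 0.62 (limma, adjusted p = 0.48), that is −1.24 against −2.69. For the estrogen group against the vehicle group, the corresponding value was 2.78 ± 1.03 for Inhba (limma, adjusted p = 0.35), from −3.21 to −0.43, and 1.62 ± 0.62 for Tnc (limma, adjusted p = 0.37), from −2.07 to −0.46. These 3 differences of effects failed the correction. With 1 array left out, the values ran from 0.84 to 2.05, from 2.16 to 3.40 and from 1.01 to 2.22. The first was not called without db/db replicate 1 (1.29) or 2 (1.60) or estrogen replicate 1 (1.53) or 2 (1.36) of labelled day 7, or db/db replicate 1 (1.06) or estrogen replicate 1 (0.84) of labelled day 14. With all arrays, it was also not called under normexp (0.99) or with the slide as a random block (1.39). The second was lost without vehicle replicate 1 (2.52) or estrogen replicate 2 (2.61) of labelled day 7, or vehicle replicate 1 (2.62) or estrogen replicate 1 (2.16) of labelled day 14, and the third without estrogen replicate 2 (1.53) or vehicle replicate 2 (1.43) of labelled day 7, or vehicle replicate 1 (1.54) or estrogen replicate 1 (1.01) of labelled day 14.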

How the results depend on the processing

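Of 140 counts of called genes under other settings than leaving out an array, 127 stayed within 1.5 times the count given above. Of 48 counts with an array left out, 32 did so. After Benjamini-Hochberg adjustment, the count was 0 for vehicle vs db/db on labelled days 7 and 14, for db/db vs WT and estrogen vs db/db on labelled day 14, and between the labelled days in the WT and db/db groups, and 1 between them in the estrogen group. For db/db vs WT on labelled day 14, it was 0 with quantile normalization and 0 with the slide as a fixed block, which left 1 gene for estrogen vs db/db. Between the labelled days in the WT group, it was 1 with the mean of all probes, 1 with the replicate block and 1 with only the arrays compared. The slide as a fixed block could not be fitted between the labelled days, since no slide held both. Replicate numbers share only a number: deviations of same-numbered arrays correlated from −0.26 to 0.24 over 12 pairs of groups, 3 of them over 0.1, and apart from the count above the block ended, at the same value, the call of Inhba with vehicle against db/db on labelled day 14 (−1.72) and that of Tnc for the change in the effect of estrogen (1.44), and no other.

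With 1 array left out, which assumes that the lone array of a group varied like the other groups, the counts ran from 2 to 3 for db/db vs WT on labelled day 7 and from 0 to 2 on labelled day 14, from 2 to 3 for estrogen vs db/db on either labelled day, from 0 to 5 and from 1 to 4 for vehicle vs db/db, and from 2 to 3 and from 0 to 1 for estrogen vs vehicle. Between the labelled days, they ran from 0 to 4 in the WT group, 0 to 3 in the db/db group and 1 to 2 in the estrogen group, and stayed at 0 in the vehicle group. Of 1078 results of single genes, 921 kept their direction and call, 108 lost the call, 42 gained it and 7 changed sign, all 7 in values that were not called. With each of their arrays left out, these ran from −1.13 to 0.098 for Postn with estrogen, from −1.04 to 0.014 for Tgfb2 and from −1.17 to 0.053 for Postn with vehicle, against db/db on labelled day 7, turned by db/db replicate 1; from −2.15 to 0.11 for Inhba with estrogen and −1.19 to 0.095 for Acta2 with vehicle against WT, turned by WT replicate 2 of labelled day 7; from −1.06 to 0.14 for Tnc with estrogen against vehicle on labelled day 14, turned by estrogen replicate 2; and from −0.080 to 1.14 for Postn between the labelled days in db/db, turned by db/db replicate 2 of labelled day 7. The cause was not tested. Over all probes, quantile normalization took the median from −0.12 to 0.07 for db/db vs WT on labelled day 14, and the share of calls that were higher from 13.1% to 32.2%, and normexp moved that median from −0.05 to −0.19 on labelled day 7.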
